A study of Rattus norvegicus with 16 samples.

Results

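Transcripts that hepatocytes make in large amounts were followed in the blood of saline-treated rats. The set comprised 40 genes, among them albumin (Alb), of the 18031 genes listed for every library. Each gene was taken by its symbol, all 40 were present in all 16 libraries, and each had a single entry. The members had been picked because liver transcripts were highest in 1 of these same libraries, control 2, so their level in control 2 is described here and not tested.

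The samples formed 1 group of 16 saline controls, and no treated animals were analysed here. They were male Sprague-Dawley rats aged 85 to 90 days that received 4 injections of saline (1 ml/kg) at intervals of 2 h and were killed 3 h after the last. Whole blood was drawn by needle from the heart and frozen, and the libraries were made from polyadenylated RNA after removal of alpha and beta globin mRNA. Each library was labelled with 1 animal, and the name of the library of control 5 also carries the word pool, which is not explained. Expression is given as normalized counts, which are estimated read counts per gene divided by a factor that brings the 16 libraries to a common depth. Since the counts are not corrected for transcript length, a gene is compared between libraries and not with other genes.

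Hepatocytes produce most of the proteins dissolved in plasma, including albumin, the fibrinogen chains, carriers of iron, heme and vitamins, protease inhibitors and the proteins of lipoprotein particles. They also hold the urea cycle, gluconeogenesis, amino acid breakdown and much of drug metabolism. The plasma proteins circulate, but their mRNA is normally kept in the liver, so the blood cells that yield most of the RNA in whole blood are not known as a main source of it. Some members are exceptions to this division. Transferrin and haptoglobin transcripts also occur in leukocytes, and arginase and argininosuccinate synthase are enzymes used by other cells as well.

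Transcription of many of these genes in the liver is known to depend on factors such as C/EBP, which bind close to the start of transcription. The promoters of Alb and of Fgb, which encodes the fibrinogen beta chain, are shown because both held the letters of a C/EBP motif while their expression shifted against each other between libraries, as described further on. Both are the 250 bases before the start site in RefSeq, build GRCr8, and both genes are on the minus strand. The capitals mark TTGCNNAA, a C/EBP motif, or its reverse complement.
Alb, chr14:17906980-17907229, minus strand: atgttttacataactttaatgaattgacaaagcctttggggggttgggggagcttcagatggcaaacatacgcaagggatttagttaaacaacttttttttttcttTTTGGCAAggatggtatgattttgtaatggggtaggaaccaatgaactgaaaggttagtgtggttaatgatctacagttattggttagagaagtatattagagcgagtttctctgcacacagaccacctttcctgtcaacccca
Fgb, chr2:170700876-170701125, minus strand: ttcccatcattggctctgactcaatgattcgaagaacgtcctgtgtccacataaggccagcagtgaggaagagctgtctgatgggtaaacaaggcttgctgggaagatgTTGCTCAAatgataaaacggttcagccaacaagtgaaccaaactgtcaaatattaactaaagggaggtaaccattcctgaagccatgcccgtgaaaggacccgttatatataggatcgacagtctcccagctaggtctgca
Of the 40 members, 30 were matched to a RefSeq promoter by symbol. In windows of 300 bases, from 250 before to 50 after the start, TTGCNNAA was found on either strand in 11 of the 30 (36.7%) and in 10.5% of 27457 rat promoters. These 11 were Ahsg, Alb, Fabp1, Fga, Fgb, Hpx, Itih4, Rbp4, Serpinc1, Slc10a1 and Tf. For 2 other motifs the shares were 16.7% and 8.68% (TTCNNNGAA, a STAT motif, 5 members) and 6.67% and 1.38% (CAAAGTCC, an HNF4 motif, 2 members). A window can hold more than 1 motif, and a match describes the letters in the window and not a binding site.

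The libraries held between 21466776 and 31189549 counts, and control 2 was the largest. They carried 6 run codes: A for controls 1 to 3, B for controls 4, 5, 7, 8 and 10, C for controls 6 and 9, D for controls 11 to 14, and E and F for controls 15 and 16. What the codes stand for is not stated, and they were treated as technical batches. The paper describes controls from experiments repeated at different dates. The labels do not give the experiment of each library, so run code and experiment cannot be told apart. A count of 3, taken as the floor, corresponded to 0.0962 to 0.140 CPM (counts scaled to the library total). Intervals below cover counting error only and treat counts as independent. PCR copies are not independent molecules, so the intervals can be too narrow.

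Alb (ENSRNOG00000002911), the most abundant protein of plasma, was graded over a very wide range. Its normalized count was 330270 in control 2, 11402 in control 8, 3102 in control 7 and 1793 in control 5. In the other 12 libraries it ran from 3.74 to 71.4 with a median of 10.9. Control 2 thus stood 29.0-fold above the next library, and controls 5, 7 and 8 stood apart from the remaining 12 without overlap. In control 2, Alb alone took 1.18% of all counts (95% Wilson interval 1.179% to 1.187%), and in control 8 it took 0.0321% (0.0314% to 0.0328%). Control 1 had the highest value of the 12, at 82 counts, and shared its run and a further code, L6, with control 2. Its normalized Alb count was 0.0216% of that in control 2.

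The other members followed the same gradient of libraries. Without transferrin (Tf), haptoglobin (Hp) and Ass1, which were counted in quantity everywhere, 37 members made up 2.15% of the counts in control 2 (2.146% to 2.157%). The share was 0.110% in control 8, 0.0213% in control 7 and 0.00930% in control 5. It lay between 0.000214% and 0.00233% in the other 12 libraries. In control 2 each of the 37 members had a count, and control 8 lacked 2 of them. In the 12 libraries between 13 and 28 of the 37 had at least 1 count.

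**Figure D1:**
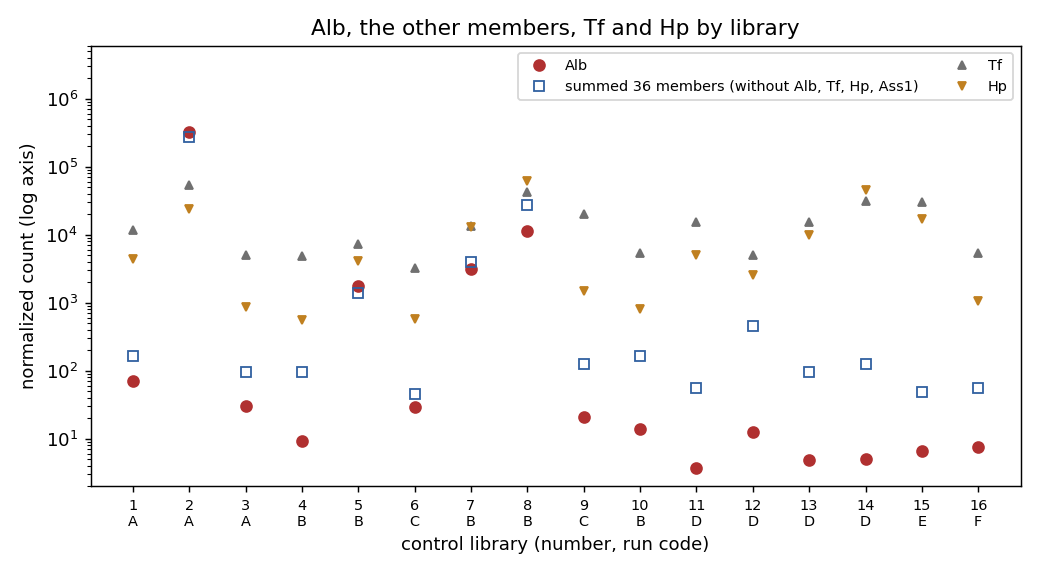
Normalized counts (log axis) of Alb, of 36 other members summed, of Tf and of Hp in each of the 16 control libraries, 1 point per library, with the run code under its number. Alb and the summed members stand highest in control 2, then in controls 8, 7 and 5, whereas Tf and Hp are at 557 or more in every library.

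Over the whole set, 39 of 40 members were highest in control 2. Among 15494 genes with a mean normalized count of at least 1, control 2 was the highest library for 13%, and since the members were picked from this library nothing is read from the difference. The excess over the next library was at least 4-fold for 35 members (3.37% of all genes) and had a median of 21.4-fold. The 5 members below 4-fold were Tf, Hp and the fibrinogen chains Fga, Fgb and Fgg. The folds of Sds, Upp2 and Akr1c1 are lower bounds of 33.2, 45.8 and 45.2, because their counts in every other library were at or below the floor. Control 8 was the highest of the remaining 15 libraries for 34 members, against 15.2% of all genes. For 29 members controls 2, 5, 7 and 8 were the 4 highest libraries, as for 1.36% of all genes, and 23 of the 29 had the order 2, 8, 7 and 5. This grouping of 4 libraries was chosen after their values were seen. In bulk RNA, fewer cells of a type and less RNA per cell cannot be told apart, and the source of the liver transcripts in controls 2, 5, 7 and 8 was not tested.

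**Figure D2:**
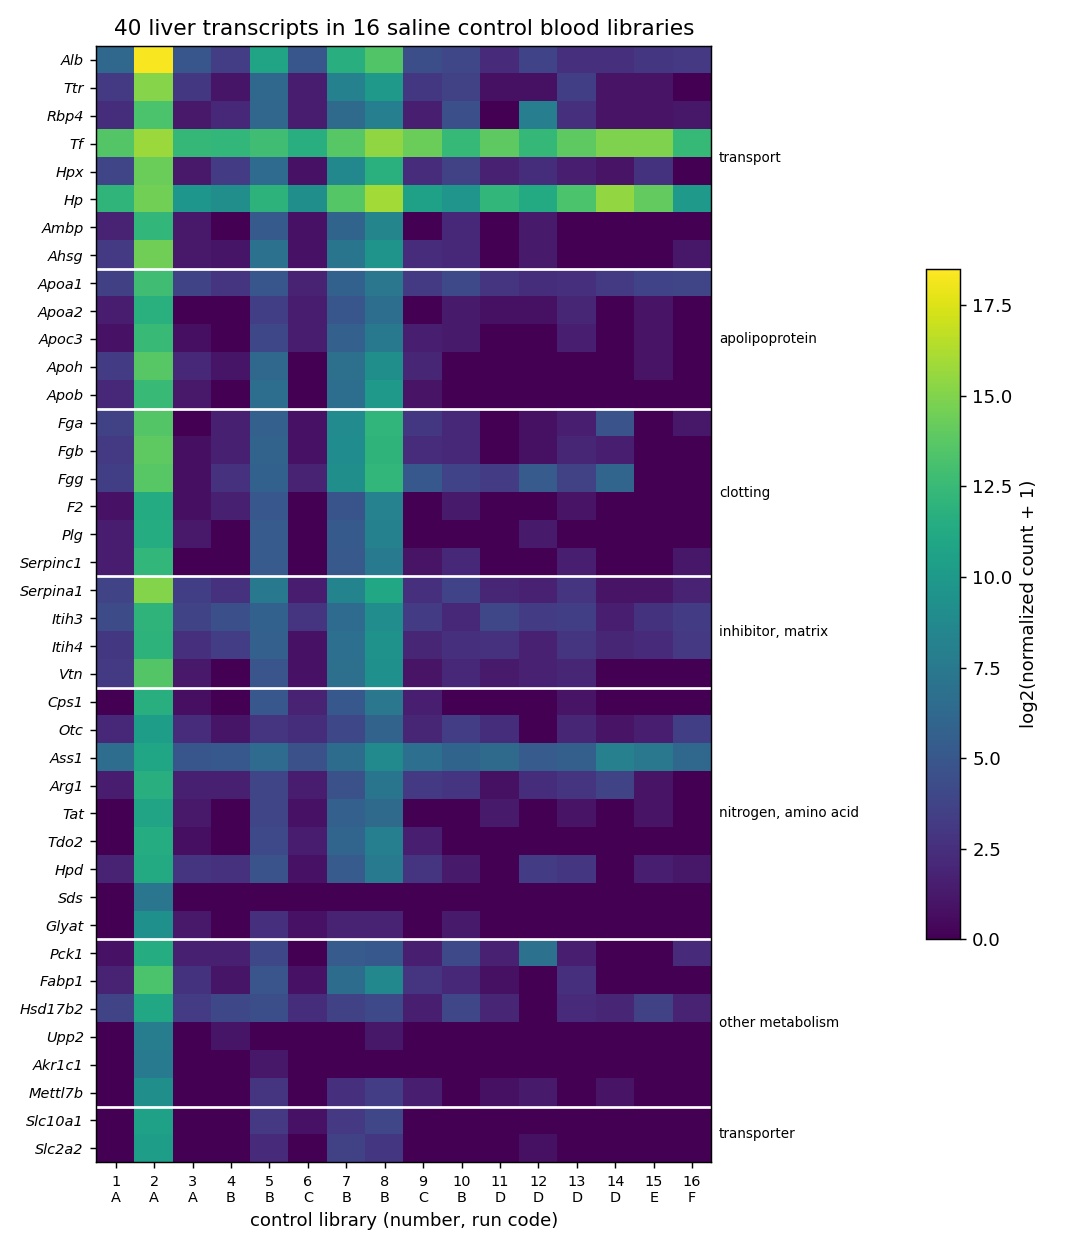
Expression of the 40 members (rows, grouped by role) in the 16 control libraries (columns, with run code), as the log2 of the normalized count plus 1. The column of control 2 is the brightest for every row but Hp, and controls 2, 5, 7 and 8 are the 4 highest for 29 of the 40 rows. Tf, Hp and Ass1 are the only rows at a normalized count of 22.97 or more in every library.

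Among the plasma carriers, transthyretin (Ttr), which carries thyroxine and the retinol-binding protein, had normalized counts of 36214 in control 2, 1013 in control 8, 286 in control 7 and 74.3 in control 5. In the other 12 libraries Ttr did not exceed 10.9. Retinol-binding protein (Rbp4) was at 9591 in control 2 and 248.9 in control 8, but reached 246 in control 12, where Alb was only 12.5. Hemopexin (Hpx), which binds free heme, was at 20426 in control 2 and 3365 in control 8. Ambp, the precursor of a heme-binding protein and a protease inhibitor, and Ahsg (fetuin-A) stood 14.2-fold and 30.4-fold above the next library in control 2, and were at 0 in 7 and 4 of the 12 low libraries.

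Tf and Hp behaved differently from the other carriers. Tf, the iron carrier of plasma, was counted at 3218 or more in every library. It was at 54860 in control 2, 43322 in control 8, 31837 in control 14 and 30447 in control 15, so control 2 was only 1.27-fold above the next library. Hp (ENSRNOG00000014964), which captures free hemoglobin, was the only member not highest in control 2. Its normalized count was 62891 in control 8, 46259 in control 14, 24142 in control 2, 17327 in control 15 and 12916 in control 7. The remaining 11 libraries lay between 557 and 10059. Controls 14 and 15 held almost no Alb (5.00 and 6.53), so high Hp and Tf occurred in libraries with almost no Alb.

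The apolipoproteins were highest in the 4 libraries with most Alb. Apoa1, the main protein of high-density lipoprotein, was at 7393 in control 2, 159 in control 8, 53.7 in control 7 and 29.7 in control 5. In the other 12 libraries it ran from 2.65 to 15.6, so a low level was present throughout. Apoh, a phospholipid-binding glycoprotein, was at 13179 in control 2 and 590 in control 8 and had no count in 7 of the 12. Apob, the scaffold of very-low-density lipoprotein, was at 6011 in control 2 and 1046 in control 8. It was at 102 in control 7 and 100.3 in control 5 and had no count in 9 of the 12. Apoa2 and Apoc3, further components of lipoproteins, stood 33.6-fold and 33.3-fold above the next library in control 2 and did not exceed 2.89 in the 12 low libraries.

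The 3 fibrinogen chains, which assemble into the clot-forming protein, had the smallest gap between controls 2 and 8 of all members besides Tf and Hp. Fga was at 12285 in control 2, 4666 in control 8, 491 in control 7 and 49.5 in control 5. Fgb was at 15694, 4259, 508 and 58.2 in the same libraries, and Fgg was at 13220, 4847, 587 and 53.2. Control 2 was therefore 2.63-fold, 3.68-fold and 2.73-fold above control 8, compared with 29.0-fold for Alb. In the other 12 libraries Fgg reached 65.05 and Fga 25.0, both in control 14, while Fgb stayed at or below 7.84. Prothrombin (F2), plasminogen (Plg) and antithrombin (Serpinc1) were at 2696, 2856 and 4811 in control 2 and at 288, 277 and 192 in control 8. Their medians over the 12 low libraries were 0.

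The protease inhibitors and matrix proteins had the same order of libraries. Serpina1 (alpha-1-antitrypsin) was at 35195 in control 2, 2113 in control 8, 318 in control 7 and 181 in control 5, with 0.932 to 13.1 in the other 12. Vitronectin (Vtn), an adhesion protein of plasma, was at 11935, 628, 110 and 28.5. The heavy chains Itih3 and Itih4 of inter-alpha-trypsin inhibitors were at 4104 and 3986 in control 2 and at 543 and 729 in control 8. Itih3 was counted in all 12 low libraries at 2.00 to 21.7.

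Of the enzymes of nitrogen and amino acid metabolism, Cps1, which commits ammonia to the urea cycle inside mitochondria, was at 3276 in control 2. It was at 162 in control 8, 33.7 in control 7 and 30.95 in control 5, and had no count in 8 of the 12 low libraries. Otc, the next enzyme of the cycle, was at 1236 in control 2 and 58.3 in control 8. Ass1, which follows Otc, was present everywhere. It was at 1967 in control 2 and 445 in control 8, then at 266 in control 14 and 170 in control 15, and at 23.0 to 105 in the remaining 12. Arg1, the last enzyme of the cycle and also an enzyme of myeloid cells, was at 3039 in control 2 and 145 in control 8, with a median of 2.06 over the 12 low libraries. Tat, Tdo2 and Hpd, which break down tyrosine and tryptophan, were at 1814, 2766 and 2478 in control 2 and at 84.3, 248.9 and 185 in control 8. The serine dehydratase gene Sds was counted only in control 2, at 154.8, and Glyat, which conjugates glycine, was at 626 there and at most 4.95 elsewhere.

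Among the remaining enzymes and the transporters, Hsd17b2, Slc10a1 and Slc2a2 had the steepest falls, with control 2 at 103-fold, 109-fold and 111-fold above the next library. The next library held at most 17 counts of each. Fabp1, the fatty acid binding protein of hepatocytes, was at 9840 in control 2, 390 in control 8, 92.4 in control 7 and 28.5 in control 5. Pck1, the gluconeogenic enzyme that adipocytes also use, was at 2797 in control 2 and only 33.7 in control 8. Its second highest library was control 12, at 126.5. Hsd17b2, a steroid-inactivating enzyme, was at 2165 in control 2 and at 21.05 or less elsewhere, with counts in all libraries but control 12. Mettl7b, a methyltransferase-like protein, was at 605 in control 2 and 9.08 in control 8, and Upp2 (a uridine phosphorylase) and Akr1c1 (an aldo-keto reductase) were at 214 and 211 in control 2 with at most 1 count in any other library. The bile acid carrier Slc10a1 was at 1549 in control 2, 14.3 in control 8, 7.49 in control 7 and 7.43 in control 5. The glucose carrier Slc2a2 was at 1248, 6.48, 11.2 and 3.71 in those libraries.

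The composition of the liver signal was then compared between libraries by expressing each member relative to Alb. The log2 ratio of member to Alb in control 8 minus that in control 2 was obtained for the 33 members with at least 10 counts in both. A difference of 0 stands for the same proportion to Alb in both libraries. The median was 0.61, 24 differences were above 0 and 9 below, and they ran from -2.26 to 6.24. The highest, for Hp and Tf (6.24 and 4.52), concern genes with a large count in libraries with almost no Alb. Leaving out Tf, Hp and Ass1, the median was 0.49 over 30 members, 26 differences exceeded 2 counting standard errors, and 15 members were within 2-fold of their ratio in control 2. These are differences between single libraries with no replicate behind them, so they were not tested.

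Relative to Alb, the fibrinogen chains were highest in control 8. The difference was 3.46 ± 0.03 (counting SE) for Fga, 3.41 ± 0.03 for Fgg and 2.97 ± 0.03 for Fgb on the log2 scale. Fga counts were 3.72% of Alb counts in control 2 and 40.9% in control 8. Itih4 (2.40 ± 0.07), Apob (2.33 ± 0.06), Hpx (2.25 ± 0.03) and Itih3 (1.94 ± 0.08) followed. F2 (1.63 ± 0.10), Plg (1.49 ± 0.10) and Tdo2 (1.38 ± 0.11) were also more than 2-fold above their ratio in control 2, as were Hpd (1.12 ± 0.12) and Ambp (1.02 ± 0.09). By role, the median difference was 2.30 for the 6 clotting genes, 1.37 for the 4 inhibitor and matrix genes and 1.02 for 7 of the 8 transport proteins. It was 0.52 for 7 of the 9 nitrogen and amino acid genes and -0.20 for the 5 apolipoproteins. For 3 of the 6 genes of other metabolism it was -1.52, and the 1 of 2 transporters with enough counts was at -1.91.

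For 4 secreted members the difference was within 2 counting standard errors. Ahsg differed by -0.07 ± 0.06, Serpinc1 by 0.21 ± 0.12, Apoc3 by -0.20 ± 0.13 and Apoa2 by -0.21 ± 0.17. Ttr (-0.30 ± 0.05) and Rbp4 (-0.41 ± 0.11) were slightly lower relative to Alb in control 8. Pck1 (-1.52 ± 0.28), Slc10a1 (-1.91 ± 0.44) and Hsd17b2 (-2.26 ± 0.42) were the lowest, on 26, 11 and 12 counts in control 8. Slc2a2 and Glyat, with 5 and 2 counts there, and Sds, with 0, were below the minimum for a ratio.

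In control 7 the fibrinogen chains were again the highest, by less than in control 8. Fgg differed from control 2 by 2.24 ± 0.07, Fga by 2.09 ± 0.08 and Fgb by 1.79 ± 0.08. Itih4 (1.52 ± 0.16), Hpx (1.06 ± 0.09) and Itih3 (1.18 ± 0.18) were also higher than in control 2, by less than in control 8. Other members went differently: Tat was at 1.55 ± 0.23, above its 0.43 ± 0.18 in control 8, and Tdo2 at 1.35 ± 0.20, close to its value in control 8. F2 (0.12 ± 0.31) and Plg (0.48 ± 0.27) were within 2 counting standard errors of 0, whereas Serpina1 was at -0.05 ± 0.10 and Ahsg at -0.56 ± 0.14. In control 5 the fibrinogen chains were not raised relative to Alb, at -0.43 ± 0.23 for Fga, -0.43 ± 0.22 for Fgg and -0.55 ± 0.21 for Fgb. Apob (1.62 ± 0.17), Plg (1.31 ± 0.26), Itih3 (1.26 ± 0.22) and Itih4 (1.23 ± 0.23) were higher there, and Ttr (-1.40 ± 0.19) and Vtn (-1.19 ± 0.30) were lower. Without Tf, Hp and Ass1, the median difference was 0.25 over 28 members in control 7 and -0.02 over 27 members in control 5.

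The ratio among the fibrinogen chains changed little in comparison. Fga counts were 0.783 of Fgb counts in control 2 (0.765 to 0.800, 95% counting interval), 1.10 in control 8 (1.04 to 1.15), 0.966 in control 7 (0.841 to 1.11) and 0.851 in control 5 (0.558 to 1.30). The 3 chains thus shifted together against Alb by 7.86-fold to 11.0-fold in control 8, while their ratio to each other shifted by less than 1.5-fold. Over the 31 members with at least 10 counts in both, Alb included and Tf, Hp and Ass1 left out, the log2 levels in controls 2 and 8 had a Pearson r of 0.806. It was 0.890 for control 7 (29 members) and 0.868 for control 5 (28 members). These are correlations across genes, which are not replicates, and the points share library, depth and transcript length.

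**Figure D3:**
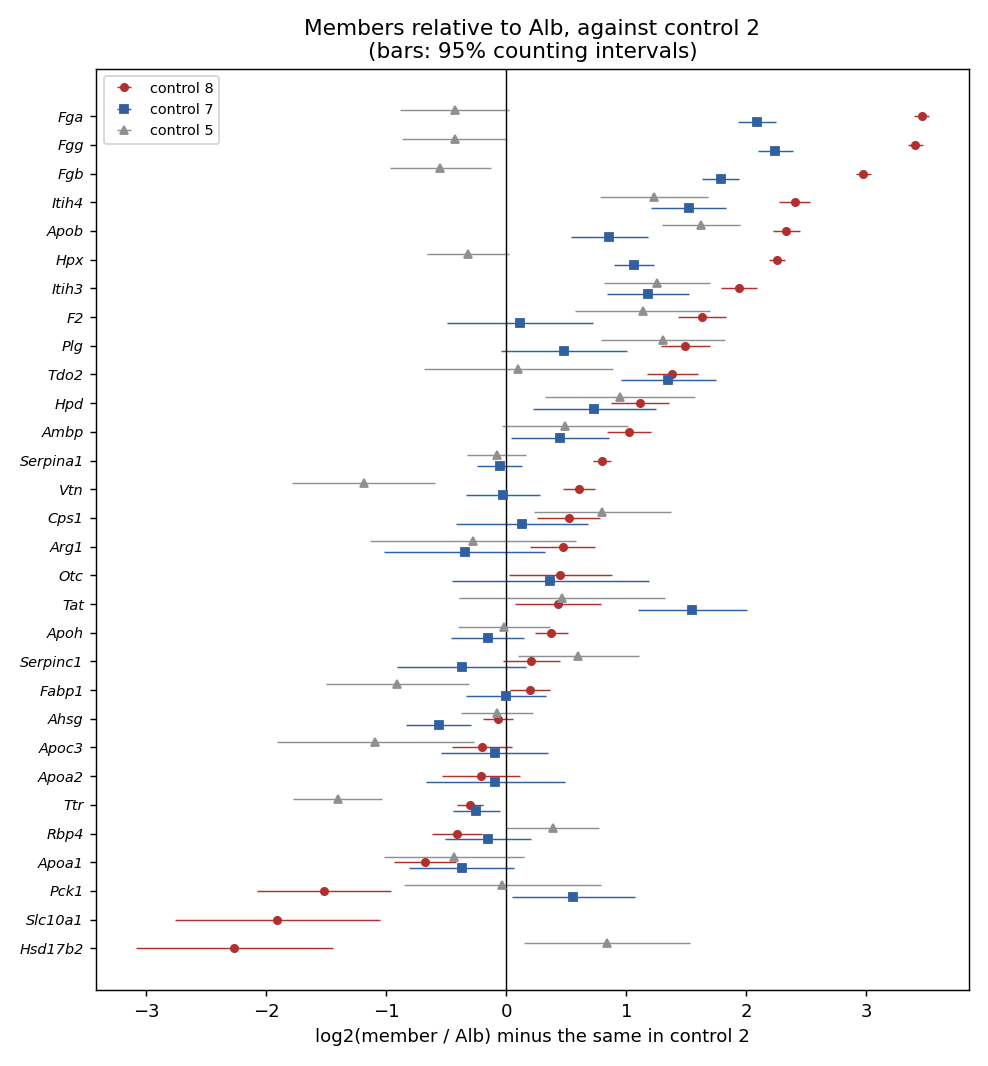
Difference in log2(member/Alb) from control 2 for controls 8, 7 and 5, for members with at least 10 counts in control 2 and the library plotted, without Tf, Hp and Ass1, ordered by control 8. Bars are 95% counting intervals. Fga, Fgg and Fgb lie at 2.97 to 3.46 in control 8, at 1.79 to 2.24 in control 7 and below 0 in control 5.

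Most liver genes outside the set were also highest in control 2. Of 103 further symbols listed as secreted, metabolic or regulatory genes of liver, 93 were found in every library. Of these, 89 were highest in control 2 (13% of all genes), and 81 were at least 4-fold above the next library (3.37% of all genes). These lists were chosen with earlier results of these data known, so nothing is read from the differences. Gc, the vitamin D carrier, was at 34541 in control 2 and 2217 in control 8. Crp, a pentraxin, was at 26753 and 3538, and Cyp2c11, a male-specific cytochrome P450 of rat liver, at 8380 and 239. The liver nuclear receptor Nr1i2 was at 232 in control 2 and at 8.74 or less elsewhere. C3, a complement component also made by myeloid cells, was highest in control 8 at 16886 and at 8478 in control 2. A2m and Orm1 were named after their values were seen. A2m, alpha-2-macroglobulin, was at 724 in control 8, 17.9 in control 2 and 0 in controls 5 and 7. Orm1, an acid glycoprotein of plasma, was at 1784 in control 8 and 1041 in control 2. Serpina3n, also named afterwards, differed by 3.16 ± 0.03 from its ratio to Alb in control 2.

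Of the 522 genes at least 4-fold above any other library in control 2, 35 were members, 82 were on the lists of other liver genes once the periportal and pericentral lists are counted in, and 405 were on none of these. Sult2a1, a sulfotransferase, was at 5221 in control 2 and 95.9 in control 8. Cyp2c13 was at 5633 and 106, Ugt2b, a glucuronosyltransferase, at 10154 and 211, Apon at 539 and 11.7 and Cyp4f4 at 255 and 5.19. For Stac3, 2010003K15Rik, Mfsd2a, Akr1c12 and Prhoxnb the level in control 2 was 226 to 337 with at most 5 counts in any other library.

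Markers of other cells moved only in part with the members. Of the Kupffer cell list, 4 of 6 genes were highest in control 2, and 3 of the 6 were at least 4-fold above the next library. Clec4f, not among these 3, was at 1578 in control 2 and 637 in control 8 but was also counted at 49.8 or more in every library. The list summed to 1926 in control 2, to 711.8 in control 8 and to 79.4 or more in every library. The periportal list was highest in control 2 for all 8 genes and the pericentral list for 6 of 7. The exception was Glul, which was at 78773 or more in every library. These counts overlap with those above, since Cps1, Pck1, Sds, Ass1 and Arg1 of the periportal list are members picked from control 2. Hal, Gls2, Cyp2e1, Cyp1a2, Rgn and Cyp7a1 were already counted among the other liver genes. The stellate cell list (5 of its 6 genes in every library) and the bile duct list (5 of 6) had 1 gene each highest in control 2. The list of sinusoidal endothelium had 4 of 6, but only 1 of the 6 was at least 4-fold above the next library. It summed to 1404 in control 2, below its median of 1497 over the 16 libraries, and was highest in control 8 at 3493. Among the 15494 genes with a mean normalized count of at least 1, control 2 was highest for 13% and at least 4-fold above any other library for 3.37%. No gene of the cardiac muscle, adipocyte, skeletal muscle, kidney, lung or pancreas lists was highest in control 2. The summed cardiac list was 85.0 in control 2 and 475 in control 10, and its median over the 16 libraries was 19.6. In control 2 Actc1 was at 36.7 and Tnnt2 at 15.2, each the 2nd highest of 16 libraries, Mb was at 17.005, Tnni3 at 8.05 and Myh6 at 7.16. Nppa, Myl7 and Ryr2 were at 0.895, 0 and 0 there and did not exceed 9.34 in any library. The adipocyte list summed to 5901 in control 12 and to 2585 in control 2, where 2419 came from Car3, an enzyme also of liver, and 137 from Cidec, a lipid droplet protein, while Adipoq was at 0.895 and Plin1 and Lep at 0. In control 12, in which Rbp4 and Pck1 were raised with little Alb, Adipoq was at 1042, and the part of these cells in that result was not tested. Of the intestinal list Apoa4 alone was highest in control 2, at 1755, and Fabp2, Cdx2 and Lct were at 0.895, 0 and 0.

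**Figure D4:**
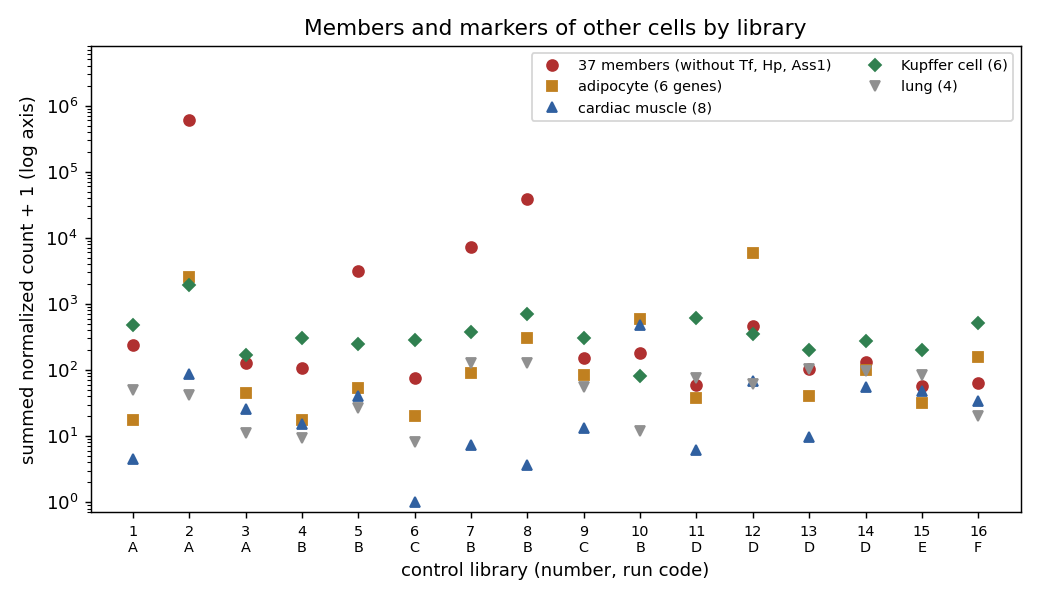
Summed normalized counts plus 1 (log axis) of 37 members and of marker lists for adipocytes, cardiac muscle, Kupffer cells and lung in the 16 control libraries, 1 point per list and library. The members stand above all lists in controls 2, 5, 7 and 8, the adipocyte list is highest in control 12 and the cardiac list in control 10.

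The run codes offer the only comparison with replicates, and a difference between them can be one of sequencing or of the repeated experiment. Run A holds control 2, from which the members were picked, so its libraries are described above and not tested here. Run B (n = 5) was compared with run D (n = 4) by edgeR's quasi-likelihood test over 12952 genes, in a fit that also held the 3 libraries of run A. Of the members 33 entered the test, and Sds, Glyat, Upp2, Akr1c1, Mettl7b, Slc10a1 and Slc2a2 did not pass its filter on low counts. No member differed at an adjusted p under 0.05, compared with 2.3% of all genes tested (298 genes). At an unadjusted p under 0.05 the count was 18 of the 33 members, beside 11.3% of all genes, and DESeq2 called 0 members, with no adjusted p for 37 of the 40. Most members were high together in controls 5, 7 and 8 of run B, so the 18 are not independent. The spread in the fit also included control 2, from which the members were picked. Nothing is therefore read from the number of members below either threshold. For Alb the log2 difference from run B to run D was -8.90 ± 3.00 (SE, edgeR adjusted p = 0.188). Of the 5 libraries of run B, controls 5, 7 and 8 stood high in Alb and controls 4 and 10 did not, at 9.28 and 14.0, and none of the 4 in run D did.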

How the data were processed

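Whole blood RNA of 16 saline-treated rats was sequenced as 51-base paired ends. The authors aligned clipped reads with Bowtie 0.12.9 to rat Ensembl transcripts (build rn5). The deposited values are estimated counts of each gene by RSEM 1.2.0 without normalization. Reads shared by similar genes were divided by RSEM, so close relatives such as the Akr1c and Ugt2b genes are uncertain. In each library 19.3% to 27.1% of the deposited expected counts were not whole, and they were rounded here. The 18031 genes listed in all files of 26405 were used.

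Normalized counts were obtained with DESeq2 size factors over the 16 libraries. Runs were compared with edgeR 4.0.16 (TMM, filterByExpr, quasi-likelihood F-test, Benjamini-Hochberg adjustment over all genes) in R 4.3.3, and with DESeq2 1.42.0 as an alternative. The code was tested on simulated data. Shares carry 95% Wilson intervals. Counting errors of ratios treat counts as Poisson. Python 3.11.15, pandas 2.3.3 and scipy 1.17.1 were used.

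The members and the gene lists were chosen with earlier results of these data known. All 40 members were accounted for, with values by library for Alb, the 2 or 3 members of each role with the highest mean and the member not highest in control 2, and with single values or ranges for the others. Also named were the 10 other genes with at least 100 counts and the highest ratio of control 2 to any other library, and up to 4 genes of each other list. Genes beyond these are marked as named after their values were seen, or are marker genes of the lists given to show which were near 0. P-values measure only the spread between these samples. Promoters were RefSeq windows of build GRCr8, and no coordinates of rn5 were used.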

Additional observations from a re-analysis of the deposited data

How the results depend on the processing

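Of 71 alternative settings of 9 results, 68 kept a count within 1.5 times the reported one or a value within its counting interval, and 48 of these are the 0 members called between runs. The number of members highest in control 2 was 39 under CPM, TMM scaling, CPM without globin genes and unrounded counts. The number at least 4-fold above the next library was 35 or 36 under these scalings, 38 at 2-fold and 29 at 10-fold. The number with control 8 the highest of the other 15 libraries was 30 to 34, and the number with controls 2, 5, 7 and 8 as the 4 highest, a count added after seeing the data, was 28 or 29. The median log2 ratio to Alb in control 8 minus control 2 was 0.61, rose to 1.12 with at least 100 counts in both libraries and to 1.28 relative to Apoa1, and was 0.61 after subtracting the median of the other 14 libraries and 0.49 without Tf, Hp and Ass1, an alternative added after seeing the data. The cause of these 2 rises was not tested. The Alb share of control 2 was 1.40% without globin genes, compared with 1.18%, because the total is smaller.

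In the comparisons of runs, of which those with run A rest on the library the members were picked from, 0 members were called under every scaling, filter and test tried and with each library of runs A, B and D left out in turn (range 0 to 0), although DESeq2 gave no adjusted p for 37 of the 40. Over all genes DESeq2 called 568 between runs A and B, 8 between A and D, and 765 between B and D, compared with 0, 0 and 298 by edgeR. No paired analysis was possible because all libraries belong to 1 group. Members with fewer than 10 counts in controls 5, 7 or 8 have ratios that the depth does not resolve.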

Other observations

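Genes of transcription factors that maintain hepatocyte identity were mostly counted at low levels and were highest in control 2. This held for all 10 of the 13 listed factors that had an entry in every library, and 7 were at least 4-fold above the next library. Over all genes these shares were 13% and 3.37%, and nothing is read from the differences, since the list was chosen with earlier results known. Hnf4a was at a normalized count of 84.1 in control 2 and 14.3 in control 8, with a median of 0.343 over the 16 libraries. Creb3l3, a membrane-bound factor of liver and intestine, was at 569 in control 2 and 20.7 in control 8. Nr1i3 was at 61.8 in control 2.

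Genes that mark the periportal and the pericentral part of the liver lobule were both present in control 2. Of the periportal genes Hal was at 380 and Gls2 at 198, and of the pericentral genes Cyp2e1 was at 2812, Cyp1a2 at 695 and Cyp7a1, the rate-limiting enzyme of bile acid synthesis, at 242. In control 8 the same genes were at 53.2, 13.0, 77.8, 28.5 and 0. Of the 7 pericentral genes, 4 were at least 4-fold above the next library in control 2 (3.37% of all genes). The others were not: Glul was at 187961 in control 2 and 495189 in control 10, Oat was 1.24-fold above the next library, and Slc1a2 was at 5.37 in control 2.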
